A study of Mus musculus with 8 samples.

Results

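The 10 genes described here encode the regulators of the antioxidant response: the transcription factors Nfe2l2 (NRF2) and Nfe2l1 (NRF1), the ubiquitin ligase parts Keap1 and Cul3, the repressors Bach1 and Bach2, the small MAF partners Mafg, Maff and Mafk, and Osgin1, a growth inhibitor induced by oxidative stress. They were taken by symbol from a table of 35976 genes, and all 10 lay among the 14703 genes with a mean log2 level above 3 that could be tested. The set was selected on the measured difference between Atad2 and control libraries, which was known when its members were chosen by name, so their values and how many passed the threshold of the fit over all genes are a description and no test of them. The table came from C2C12 cells, a mouse skeletal muscle myoblast line. Non-targeting shRNA was given to the cells of 4 control libraries. The cells of 4 further libraries were given ATAD2 shRNA, against a chromatin ATPase with a bromodomain. RNA was taken 48 h after transfection, and the cells otherwise carried no stated allele or agent. C2C12 is a single immortal line, the labels name a single ATAD2 shRNA treatment, and separate cultures are not stated for the replicates, so all errors and p-values measure the spread between these libraries only, which may be technical.

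NRF2 is a basic leucine zipper factor of the cap'n'collar family. In unstressed cells KEAP1 holds it on a ligase built on CUL3 and it is degraded, and electrophiles or oxidants that modify cysteines of KEAP1 let it accumulate. It then pairs with a small MAF protein, which has a DNA-binding zipper but no activation domain, and binds antioxidant response elements of genes for glutathione, thioredoxin, NADPH and heme metabolism. BACH1 and BACH2 pair with the same small MAF proteins on the same elements and repress, and heme releases BACH1. NRF1 is made at the endoplasmic reticulum and, once cut and freed, drives proteasome subunit genes. Much of this control acts on the proteins, which RNA levels do not show.

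The recovered depth was 61.4 to 73.0 Mreads (megareads) per control library and 50.3 to 72.3 Mreads per Atad2 library, and the floor of 3 reads lay at 0.0411 to 0.0596 RPM (reads per megaread), which covers counting error only. Levels are log2(normalized count + 1), differences are Atad2 minus control on that scale ± SE of the fit over all genes, and a difference on this scale understates the change of weak genes. Atad2 itself stood at 14.60 to 14.74 in the control libraries and 11.76 to 12.05 in the Atad2 libraries, 6.66-fold lower. The myoblast markers Myod1 and Des stood at 12.61 ± 0.06 and 14.74 ± 0.05 in control and at 12.86 ± 0.06 and 15.12 ± 0.06 in Atad2 libraries (SD, n = 4). Myf5 (9.54 to 8.26), Cdh15 (12.71 to 11.75) and Pax7 (4.70 to 1.44, 0 to 41 reads) had lower means in the Atad2 libraries, and Myog (4.79 to 6.94), a differentiation marker, a higher one. Of the markers of other cell types, Pdgfra (10.95 to 12.26) and Cd68 (7.92 to 9.10) had higher means in the Atad2 libraries, and Col3a1 stood at 16.01 and 15.85 and Cd14 at 9.37 and 9.24. Lum and Thy1 (fibroblast), Adgre1 (macrophage) and Adipoq (adipocyte) had 0 reads in every library and the endothelial Cdh5 had 0 to 1. The other endothelial markers were weak: Kdr had 2 to 31 reads, Tek 5 to 26 and Pecam1 1 to 14. Their means in control and Atad2 libraries were 4.48 and 3.36, 3.86 and 3.18, and 1.91 and 3.46. The summed level of the 4 endothelial markers was 5.32 to 5.41 in the control and 4.29 to 5.46 in the Atad2 libraries. The summed level of the 5 macrophage markers was 9.83 to 9.93 in the control and 10.10 to 10.36 in the Atad2 libraries, and that of the 5 fibroblast markers 15.97 to 16.15 and 15.81 to 16.22; their part in the results below was not tested. In bulk RNA, fewer cells of a type and less RNA per cell cannot be told apart. Atad2 replicate 3, the shallowest library, stood apart from the other 7 on a second principal component with 8.29% of the variance, and leaving it out shifted no member's difference by more than 0.04.

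Of the 10 genes, 6 were higher and 1 was lower in the Atad2 libraries at an adjusted p under 0.05, and 3 did not pass. Over all genes tested, 60.4% passed that threshold, 30.8% higher and 29.6% lower. Among the 8608 tested genes in a band of mean levels that holds all members but Bach2 (like levels), 67.1% passed, 42.7% higher and 24.4% lower. Control and Atad2 values had no overlap for 8 of the 10 genes, 6 higher and 2 lower. The same held for 53.5% of all genes tested (27.7% higher and 25.8% lower) and for 59.9% of those at like levels (38.4% higher and 21.5% lower). The median difference was 0.28 for the 10 genes, -0.01 for all genes tested and 0.06 for those at like levels. Since the set was proposed from this contrast, nothing is read from these counts. None of the 10 differed 2-fold or more, against 1792 of the 14703 genes and 211 of the 8608 at like levels.

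**Figure D1:**
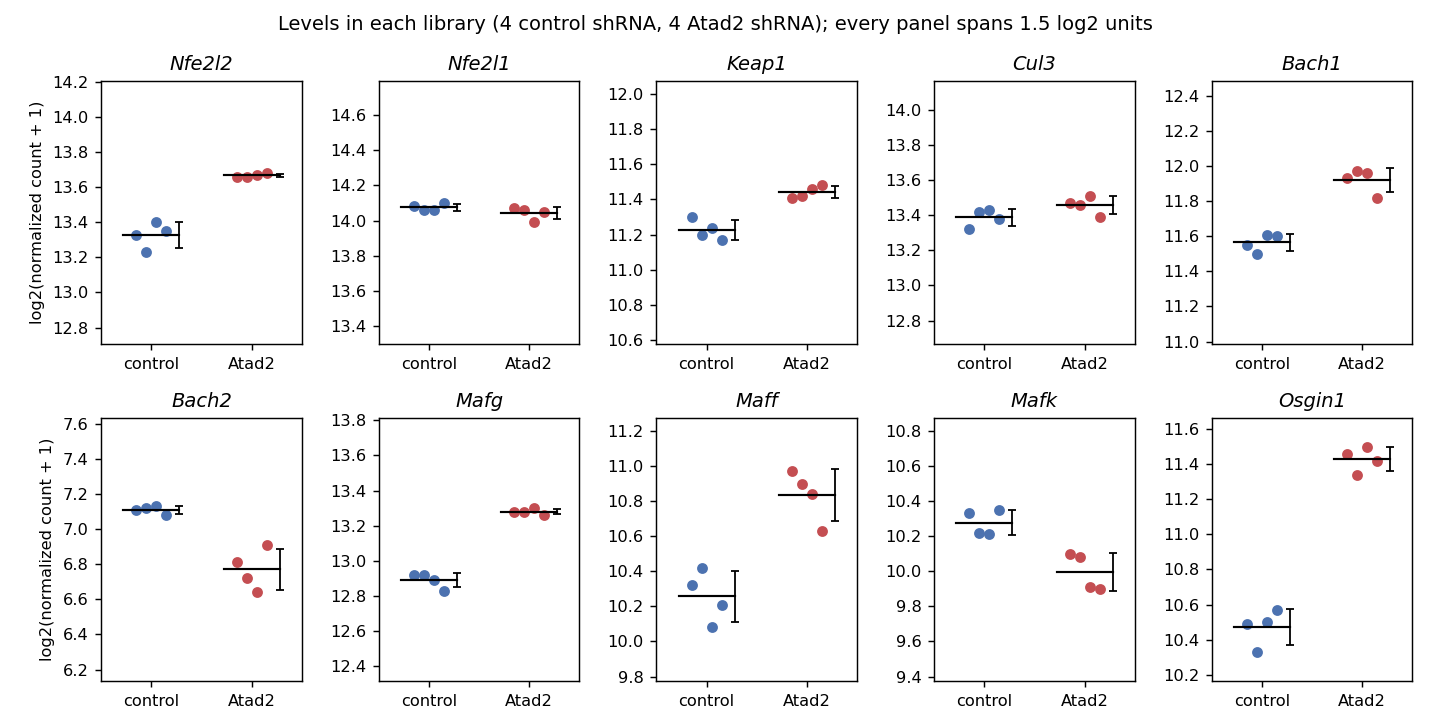
Levels of the 10 regulator genes in each library, as log2(normalized count + 1), with 4 control shRNA libraries in blue and 4 Atad2 shRNA libraries in red; the line is the group mean and the bar its SD, and each panel spans the same log2 distance. The groups are apart for all genes but Nfe2l1 and Cul3, with the widest gap for Osgin1.

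The promoters of Nfe2l2 and the small MAF genes are shown first because they hold the letters that NRF2 and BACH1 are known to bind, and that of Osgin1 because its gene differed most. RefSeq promoters on GRCm38.p6, from 250 bases before to 50 after a start site, were matched for all 10 genes, as 16 promoters. The core of the antioxidant response element, TGACNNNGC on either strand, was found in 4 of them, those of Nfe2l2, Mafg and Mafk and the first of 3 for Maff. Of all 32851 promoters of this length, 12.4% hold it. The Osgin1 promoter has no match to that pattern but holds an AP-1 site, TGACTCA on either strand, which 5.2% of all promoters hold. On the opposite strand this site, with the GC next to it, meets the element core in all fixed letters but its first C. It may therefore be a form of the element that the pattern misses. A promoter can match both patterns, and none of the 16 did. Capitals mark the match.
Nfe2l2 promoter, chr2:75704614-75704913, minus strand: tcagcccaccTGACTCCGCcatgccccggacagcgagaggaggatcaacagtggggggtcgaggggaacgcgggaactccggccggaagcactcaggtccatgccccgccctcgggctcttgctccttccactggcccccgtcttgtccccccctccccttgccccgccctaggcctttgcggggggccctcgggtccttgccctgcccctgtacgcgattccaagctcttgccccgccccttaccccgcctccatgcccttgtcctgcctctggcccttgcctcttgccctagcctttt
Mafg promoter, chr11:120633498-120633797, minus strand: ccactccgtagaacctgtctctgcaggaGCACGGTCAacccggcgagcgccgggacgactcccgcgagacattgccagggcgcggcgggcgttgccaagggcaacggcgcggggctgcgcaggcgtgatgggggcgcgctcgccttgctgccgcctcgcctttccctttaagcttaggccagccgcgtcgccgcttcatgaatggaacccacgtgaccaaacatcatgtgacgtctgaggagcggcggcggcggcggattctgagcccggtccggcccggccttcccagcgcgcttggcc
Maff promoter, chr15:79346371-79346670, plus strand: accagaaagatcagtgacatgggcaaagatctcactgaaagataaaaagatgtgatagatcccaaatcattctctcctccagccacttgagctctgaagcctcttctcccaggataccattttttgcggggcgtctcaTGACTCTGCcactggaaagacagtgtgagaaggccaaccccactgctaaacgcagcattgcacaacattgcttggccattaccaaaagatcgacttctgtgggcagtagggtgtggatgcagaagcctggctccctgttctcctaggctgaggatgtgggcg
Mafk promoter, chr5:139791286-139791585, plus strand: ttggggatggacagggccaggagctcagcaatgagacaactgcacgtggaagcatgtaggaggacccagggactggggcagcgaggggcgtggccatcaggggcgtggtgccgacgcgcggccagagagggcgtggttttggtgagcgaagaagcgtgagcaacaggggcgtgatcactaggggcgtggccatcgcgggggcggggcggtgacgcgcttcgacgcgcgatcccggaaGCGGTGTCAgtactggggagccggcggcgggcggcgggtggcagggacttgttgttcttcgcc
Osgin1 promoter, chr8:119436897-119437196, plus strand: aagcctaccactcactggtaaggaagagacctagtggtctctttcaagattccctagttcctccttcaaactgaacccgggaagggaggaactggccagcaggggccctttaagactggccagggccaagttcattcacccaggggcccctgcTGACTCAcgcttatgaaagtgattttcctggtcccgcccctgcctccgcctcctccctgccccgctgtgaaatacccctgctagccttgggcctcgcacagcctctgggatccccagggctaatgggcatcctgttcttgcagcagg
The matched letters read TGACTCCGC in Nfe2l2, 240 bases upstream of the start site, and TGACTCTGC in Maff, 112 bases upstream. In Mafg and Mafk the match lies on the opposite strand, as TGACCGTGC 222 bases upstream and TGACACCGC 13 bases upstream. Of these 4 genes, Nfe2l2, Mafg and Maff were higher in the Atad2 libraries and Mafk was lower. A match is a description of letters and not of a bound site. The 12 promoters without one may hold the element outside this window or in a form that the pattern misses.

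Nfe2l2 (chromosome 2, 75675513 to 75704641, GRCm38, protein-coding), which encodes the activator NRF2, was higher in every Atad2 library. Its levels were 13.33, 13.23, 13.40 and 13.35 in control replicates 1 to 4 and 13.66, 13.66, 13.67 and 13.68 in Atad2 replicates 1 to 4. The Atad2 libraries lay within 0.02 of each other, and the lowest stood 0.26 above the highest control. The difference was 0.34 ± 0.03 (95% interval 0.27 to 0.42), a 1.27-fold higher level, with 9524 to 12276 reads in each control library and 10141 to 14190 in each Atad2 library. Of all genes tested, 60.9% differed by less in either direction. Leaving out any one library gave 0.31 to 0.37, and quantile normalization 0.24.

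Nfe2l1 (chromosome 11, 96817414 to 96829968, protein-coding), the paralog that governs proteasome genes, had the smallest difference of the 10. It stood at 14.08, 14.06, 14.06 and 14.10 with control shRNA and 14.07, 14.06, 13.99 and 14.05 with Atad2 shRNA. The groups overlapped, and Atad2 replicates 3 and 4 lay below every control. The difference was -0.03 ± 0.03 (95% interval -0.09 to 0.03), and -0.14 with quantile normalization. The ratio of Nfe2l2 to Nfe2l1, per kb of exon, was 0.854 with control shRNA and 1.11 with Atad2 shRNA, with groups that did not overlap. With the longest coding transcript as length, Nfe2l2 stood above Nfe2l1 in both groups (4150 against 3710 and 5270 against 3630 normalized counts per kb).

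The ligase genes differed by less than Nfe2l2. Keap1 (chromosome 9, 21229730 to 21239361, protein-coding), the substrate adaptor that binds NRF2, stood at 11.30, 11.20, 11.24 and 11.17 with control shRNA and at 11.41, 11.42, 11.46 and 11.48 with Atad2 shRNA. The lowest Atad2 library was 0.11 above the highest control, and the difference was 0.22 ± 0.04 (1.16-fold). Cul3 (chromosome 1, 80264923 to 80340480, protein-coding), the scaffold shared by many BTB adaptors, stood at 13.32, 13.42, 13.43 and 13.38 and at 13.47, 13.46, 13.51 and 13.39. These values overlapped, with Atad2 replicate 4 among the controls, and the difference was 0.07 ± 0.03, or 0.09 without Atad2 replicate 4 and -0.02 with quantile normalization. An antisense gene, Gm16754, shares exon bases with Keap1, and reads of the pair cannot be told apart here, since the kit kept strand but the strand setting of the counting is not given.

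The repressor genes had differences of opposite sign, except with quantile normalization, where both were positive. Bach1 (chromosome 16, 87698945 to 87733346, protein-coding), the heme-sensitive repressor, stood at 11.55, 11.50, 11.61 and 11.60 with control shRNA and at 11.93, 11.97, 11.96 and 11.82 with Atad2 shRNA. All 4 Atad2 libraries were above the controls, by 0.21 or more, and the difference was 0.36 ± 0.04 (1.28-fold). Within a library the ratio of Nfe2l2 to Bach1 per kb overlapped between the groups, at 5.52 with control shRNA and 5.47 with Atad2 shRNA, a difference of -0.01 in log2. The ratio of Nfe2l2 to Keap1 was 5.30 and 5.80, with no overlap but only 0.13 apart in log2.

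Bach2 (chromosome 4, 32238804 to 32586108, protein-coding), best known from lymphocytes, was the weakest member, with 137 to 158 reads in each control library and 77 to 122 in each Atad2 library. It stood at 7.11, 7.12, 7.13 and 7.08 with control shRNA and at 6.81, 6.72, 6.64 and 6.91 with Atad2 shRNA. All 4 Atad2 values were below the controls. The difference was -0.34 ± 0.16, with the largest SE of the 10, and it turned to 0.08 with quantile normalization. The antisense gene Bach2os, which shares exon bases with Bach2, had 0 to 2 reads per control library and 0 in the Atad2 libraries.

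The small MAF genes had differences of both signs. Mafg (chromosome 11, 120625117 to 120633600, protein-coding) stood at 12.92, 12.92, 12.89 and 12.83 with control shRNA and at 13.28, 13.28, 13.30 and 13.26 with Atad2 shRNA. The Atad2 values were 0.34 or more above the controls, and the difference was 0.39 ± 0.03 (1.31-fold). Mafg shares exon bases on the same strand with Sirt7, a deacetylase gene, which stood at 10.62 ± 0.07 and 10.49 ± 0.07 (SD, n = 4 each), lower where Mafg was higher.

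Maff (chromosome 15, 79346621 to 79359076, protein-coding) had the widest spread of the small MAF genes, at 10.32, 10.42, 10.08 and 10.21 with control shRNA and 10.97, 10.90, 10.84 and 10.63 with Atad2 shRNA. The groups were still 0.21 apart, and the difference was 0.58 ± 0.07 (1.49-fold, 95% interval 0.42 to 0.73). Mafk (chromosome 5, 139791513 to 139802653, protein-coding) was lower instead, at 10.33, 10.22, 10.21 and 10.35 with control shRNA and 10.10, 10.08, 9.91 and 9.90 with Atad2 shRNA. The highest Atad2 value lay 0.11 below the lowest control, and the difference was -0.28 ± 0.07, 1.22-fold lower. Tmem184a, an opposite-strand neighbour that shares exon bases with Mafk, had 2 to 12 reads in each control library and 0 to 2 in each Atad2 library, against 747 to 1541 reads for Mafk.

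Summed per kb of exon, the 3 small MAF genes reached 2140 ± 74.0 normalized counts with control shRNA and 2740 ± 93.2 with Atad2 shRNA (SD, n = 4 each), 1.28-fold higher. The factors for Nfe2l2 and Bach1, whose products pair with these proteins, were 1.27 and 1.28. Mafg made up 63.1% ± 1.47 and 64.7% ± 1.99 of the sum, a difference within the spread. The share of Maff was 22.1% ± 1.53 and 25.7% ± 1.68, with overlapping values (20.1% to 23.9% and 23.4% to 27.4%). The share of Mafk was 14.9% ± 0.933 and 9.55% ± 0.474, with every Atad2 library below every control.

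Osgin1 (chromosome 8, 119434124 to 119446256, protein-coding), itself known as a target of NRF2, differed most. It stood at 10.49, 10.33, 10.50 and 10.57 with control shRNA and at 11.46, 11.34, 11.50 and 11.42 with Atad2 shRNA. The lowest Atad2 library was 0.77 above the highest control. The difference was 0.96 ± 0.06 (1.94-fold, 95% interval 0.84 to 1.07), with 1275 to 1794 reads in each control library and 2245 to 3081 in each Atad2 library. Of all genes tested, 87.0% differed by less, and the Osgin1 difference was 0.91 to 0.99 over all 17 alternatives.

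**Figure D2:**
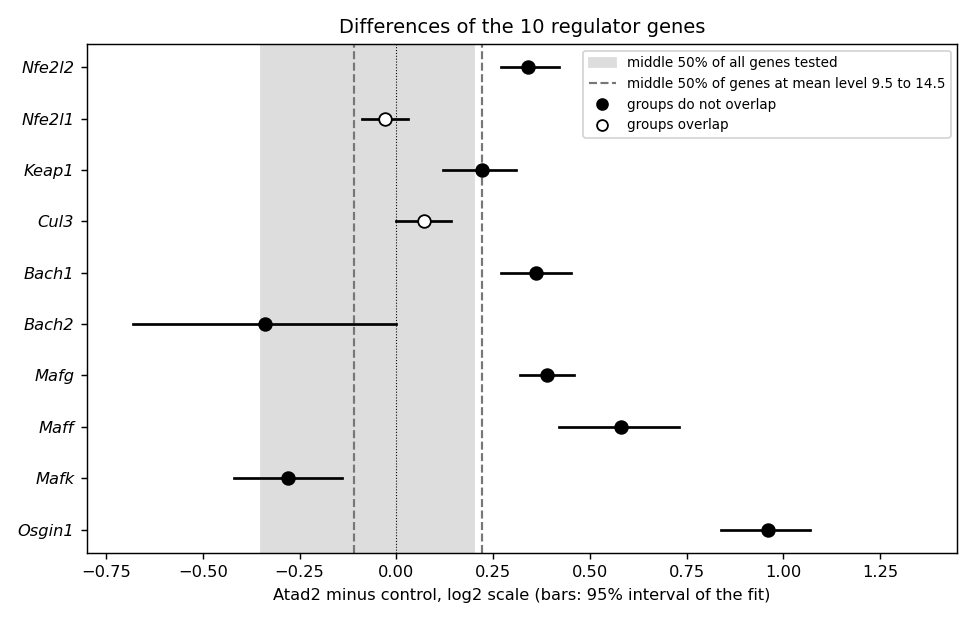
Difference of each regulator gene, Atad2 minus control on the log2 scale, with the 95% interval of the fit; open points mark genes whose groups overlap. Shading spans the quartiles of all genes tested (-0.35 to 0.20), dashed lines those of genes at like levels (-0.11 to 0.22), and Nfe2l2, Bach1, Mafg, Maff and Osgin1 lie above both.

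Levels between genes were compared per kb of exon, the union of all annotated exons in GENCODE M21. In the controls the order ran from Nfe2l1 (3170 ± 37.5 normalized counts per kb) through Nfe2l2 (2710 ± 138), Cul3 (2200 ± 76.1) and Mafg (1350 ± 40.6), and the ranges of these 4 did not touch. Osgin1 (532 ± 37.4), Keap1 (510 ± 19.9), Bach1 (490 ± 16.6) and Maff (473 ± 47.1) followed, with overlapping ranges from each to the next. Mafk (318 ± 16.7) and Bach2 (13.8 ± 0.220) came last. In the Atad2 libraries Nfe2l2 led at 3430 ± 22.6, before Nfe2l1 at 3100 ± 76.1, and Osgin1 (1030 ± 47.0) had left the group of similar levels. Maff (707 ± 69.0) and Bach1 (628 ± 29.7) still overlapped, as did Bach1 and Keap1 (593 ± 14). In the controls the length used matters for 2 pairs: per kb of the longest coding transcript, Nfe2l2 (4150) stood above Nfe2l1 (3710) and Maff (627) above Bach1 (517). By that length Keap1 (769) stood above Bach1 (661) in the Atad2 libraries.

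**Figure D3:**
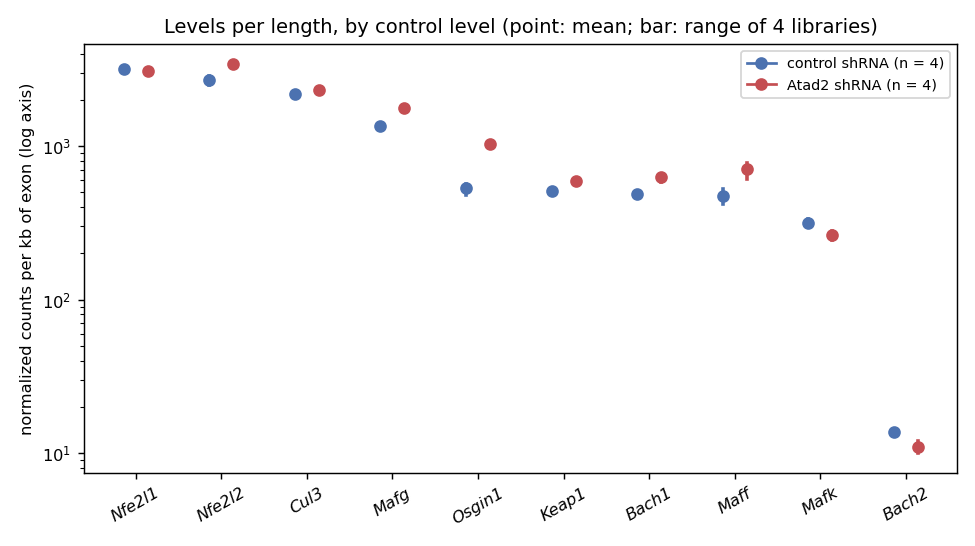
Levels of the 10 genes per kb of exon on a log axis, as the mean (point) and range (bar) of 4 libraries in each group, ordered by the control mean. Nfe2l1, Nfe2l2, Cul3 and Mafg lie above the rest in both groups and Bach2 lies far below.

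The genes closest in profile were sought for the 3 members with the largest differences, by the root mean square distance between profiles over the 8 libraries, each centred on its own mean, among 11786 other named genes with a mean of at least 5. For Osgin1 they were Cmtm3, Fgfr1 and Tgfb1, at distances of 0.043 to 0.060 in log2. For Maff they were N4bp3, Slc20a1 and Oaf (0.052 to 0.059), and for Mafg Slc38a2, Tnfrsf1b and Trmt10c (0.017 to 0.024). Such likeness over 2 groups of libraries follows mostly from a shared difference between the groups: those of the 3 genes near Osgin1 were 0.90 to 0.94.

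Target genes of NRF2 were higher in the Atad2 libraries far more often than lower. Of 40 listed, 39 were tested, 32 rose, 4 fell and 3 did not pass (limma, adjusted p under 0.05). The shares higher and lower were 30.8% and 29.6% of all genes and 42.7% and 24.4% of those at like levels. The median difference of the targets was 0.83, and 18 rose at least 2-fold. Known targets of this pathway were listed with earlier results of these data in view, and Slc7a11 and Gsta2 were already known to rise, so the count is not independent evidence. Gpx2, with 0 to 1 reads per library, was not tested. Gsta3, counted among the 32 and the 18, passed the filter only through the Atad2 libraries. Ptgr1, a reductase of reactive alkenals, rose from 12.93 ± 0.06 to 14.93 ± 0.02 (1.99 ± 0.03, limma adjusted p = 1.1e-20). The glutathione transferase gene Gsta4 rose from 13.39 ± 0.09 to 15.50 ± 0.01 (2.12 ± 0.04) and the thioredoxin reductase gene Txnrd1 from 14.38 ± 0.03 to 16.14 ± 0.10 (1.76 ± 0.04). In each of these 3 genes all 4 Atad2 libraries lay above all controls, and limma adjusted p-values were at most 1.7e-18. Gsta4 belongs to a family of similar copies with Gsta1, Gsta2 and Gsta3, which also rose, so the share of reads of each is uncertain.

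The targets were then divided by role, after their values had been seen. All 4 genes of glutathione synthesis and recycling rose, by 0.69 to 3.42, as did all 6 tested genes of thioredoxin and peroxide removal (0.53 to 1.76), all 5 of heme and iron (0.11 to 1.5) and both efflux pumps (1.22 and 1.39). Of 7 glutathione transferases 6 rose, among them Gsta3, which passed the filter only through the Atad2 libraries. Mgst1, a membrane-bound enzyme of this activity, fell from 10.21 ± 0.12 to 9.66 ± 0.09 (-0.56 ± 0.07, limma adjusted p = 1.1e-06). Of 10 genes of quinone, aldehyde and epoxide detoxification 7 rose, and Ephx1, an epoxide hydrolase, fell from 14.29 ± 0.06 to 13.81 ± 0.13 (-0.47 ± 0.05). Single libraries stood apart from their group for Mgst1 and Ephx1, and for Amer1, Ep300 and Syvn1 below. NADPH supply was divided: Pgd and Taldo1 rose by 1.1 and 1.2, G6pdx and Tkt changed by -0.18 ± 0.03 and -0.10 ± 0.04 (Tkt with overlapping groups and a limma adjusted p of 0.0477), and Me1 stood at -0.02 ± 0.03. Besides Me1, the targets that did not pass were Ugdh (0.03 ± 0.04) and Cbr1 (-0.06 ± 0.06). In their own promoters, 12 of 33 matched targets held the core TGACNNNGC, of which 8 rose, 2 fell (Mgst1 and G6pdx) and 2 did not pass. By promoter the share was 31% of 42, against 12.4% of all promoters.

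**Figure D4:**
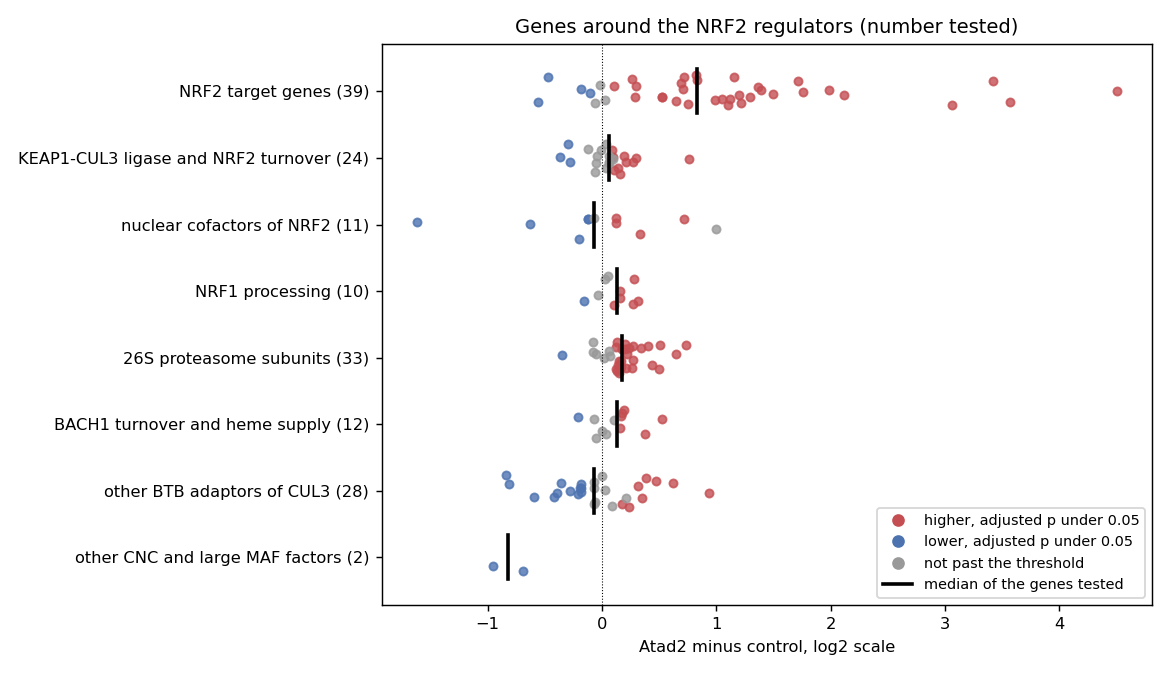
Difference of each tested gene, Atad2 minus control on the log2 scale, in 8 lists around the regulators; red and blue mark genes higher and lower at an adjusted p under 0.05, grey those that did not pass, and the bar is the median. The NRF2 targets have a median of 0.83, while the other lists with over 2 genes have medians from -0.07 to 0.18.

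Genes listed around the KEAP1 ligase and NRF2 turnover differed by less than the targets did. The list also holds genes whose products act against the ligase, such as Sqstm1 and Amer1, so its counts pool opposite roles. Of 24 tested, 10 rose (41.7%), 3 fell (12.5%) and 11 did not pass. Among all genes 30.8% were higher and 29.6% lower, and among those at like levels 42.7% and 24.4%. The median difference of the 24 was 0.06, but with quantile normalization 5 rose and 8 fell. Sqstm1, whose product p62 draws KEAP1 into autophagy, rose most, by 0.76 ± 0.04 (limma adjusted p = 9.4e-13). Ube2m, which attaches NEDD8 to cullins, rose by 0.30 ± 0.03 and the kinase gene Gsk3a by 0.27 ± 0.04. Btrc, the F-box adaptor of a second NRF2 ligase, changed by -0.37 ± 0.06, and Amer1, whose product competes for KEAP1, by -0.30 ± 0.06 (limma adjusted p-values at most 0.0001). Among 28 other tested BTB adaptors of CUL3, 12 fell (42.9%), 8 rose (28.6%) and 8 did not pass, against 29.6% lower and 30.8% higher among all genes and 24.4% and 42.7% among those at like levels. Klhl9 changed by -0.28 ± 0.03, Kbtbd4 by -0.42 ± 0.05 and Kbtbd7 by -0.59 ± 0.09, while Klhl21 rose by 0.94 ± 0.04 and Klhl24 by 0.62 ± 0.06 (limma adjusted p-values at most 1.7e-05). Keap1, at 0.22, thus lay between adaptors of either direction.

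The nuclear cofactors and rivals of NRF2 were mixed, with 4 of 11 higher (36.4%), 5 lower (45.5%) and 2 not past the threshold. The shares higher and lower were 30.8% and 29.6% of all genes and 42.7% and 24.4% of those at like levels. Rxra, a nuclear receptor that binds NRF2, rose by 0.72 ± 0.04, and the acetyltransferase gene Ep300 by 0.33 ± 0.03. Jund, an AP-1 factor, fell from 12.75 ± 0.06 to 12.12 ± 0.12 (-0.63 ± 0.05, limma adjusted p = 6.1e-10), and Med16, a Mediator subunit known to serve NRF2, changed by -0.20 ± 0.05. Atf4 changed by -0.12 ± 0.04 with overlapping groups (limma adjusted p = 0.0076), a call that was lost when the variance trend was left out (0.0549). Of the other family members, Maf, a large MAF factor, fell from 9.64 ± 0.10 to 8.96 ± 0.36 (-0.69 ± 0.12, limma adjusted p = 7.3e-05) and Mafa from 5.50 ± 0.31 to 4.55 ± 0.21 (-0.95 ± 0.31, limma adjusted p = 0.013). The Mafa call was lost with quantile normalization (0.238). Nfe2 had at most 11 reads in a library, Nfe2l3 at most 4 and Nrl 0, so these were not tested.

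Around NRF1, 6 of 10 processing genes rose (60.0%), 1 fell and 3 were not past the threshold. Over all genes 30.8% were higher and 29.6% lower, and over those at like levels 42.7% and 24.4%. With quantile normalization 3 processing genes rose and 1 fell. Vcp, the segregase that pulls NRF1 from the membrane, rose by 0.32 ± 0.03, the ligase gene Syvn1 by 0.27 ± 0.04 and Hcfc1 by 0.28 ± 0.03, while Ufd1l, a partner of VCP, changed by -0.16 ± 0.05 (limma adjusted p-values at most 0.00534). Among 33 proteasome genes 26 rose (78.8%), 1 fell and 6 were not past the threshold, with a median of 0.18 and no 2-fold change, and with quantile normalization 15 rose and 4 fell. The subunit genes Psmd11, Psmb6 and Psmd7 rose by 0.65 ± 0.04, 0.74 ± 0.04 and 0.50 ± 0.04, and Psmd2 fell from 14.77 ± 0.04 to 14.42 ± 0.05 (limma adjusted p = 8.4e-09). The number that fell was 3 when Atad2 replicate 1 was left out and 2 when control replicate 2 was.

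Heme is the ligand that releases BACH1. Of 12 tested genes of heme metabolism and BACH1 turnover, 6 rose (50%), 1 fell and 5 did not pass. Of all genes, 30.8% were higher and 29.6% lower, and of those at like levels 42.7% and 24.4%. The 6 include Hmox2, the gene of a heme-degrading enzyme (0.18 ± 0.05, with overlapping groups). Alas1, the first enzyme of heme synthesis, rose from 11.68 ± 0.09 to 12.21 ± 0.02 (0.53 ± 0.04, limma adjusted p = 1.2e-09), and Alad by 0.19 ± 0.04. Ppox, a late enzyme of the pathway, changed by -0.21 ± 0.08 with overlapping groups (limma adjusted p = 0.0249). Its call was lost with quantile normalization (0.258) and without control replicate 1 (0.066) or 3 (0.0514) or Atad2 replicate 1 (0.0915) or 3 (0.0523).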

How the data were processed

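Total RNA from 8 C2C12 libraries was sequenced. The submitters' processing notes name HTSeq 0.13.5, DESeq2 without a version, SAMtools 1.1, bcl2fastq 2.20 and build mm10. How reads were aligned, annotated and counted by strand was not given in the sources used here. The authors deposited log2(x + 1) values, where x is a read count over the size factor of its library. This was read from the values, since low values (under 50 reads), converted back, lay on whole multiples of one step in 100% of cases within 0.1 reads. Reads recovered with that step gave depth and read ranges and are approximate for strong genes.

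Genes with a mean above 3 were tested over the whole table with limma 3.58.1 in R 4.3.3 (eBayes with trend, two-sided, Benjamini-Hochberg adjusted p under 0.05, no covariates), and only rows of the members and lists are given. The procedure was tested on simulated data. The members and the 8 lists (168 symbols, 167 in the table; Flvcr1 was not found) were chosen with earlier results of these data known. For each list the called genes with a mean of at least 5 and the smallest adjusted p are named, up to 3 on the side with more calls and up to 2 on the opposite side; targets named beyond that were chosen after their values were seen, and some genes the rule or lists would name are not reported here. The alternatives tried changed the filter (none, or a mean above 5), the scaling (quantile normalization, median centring, an offset of 8), the model (eBayes robust or without trend, a replicate block, limma-voom on recovered reads) or left out each library. Tables were made in Python 3.11.15 with NumPy 2.4.6 and pandas 2.3.3, and plots in matplotlib 3.10.9.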

Additional observations from a re-analysis of the deposited data

Results flagged for a closer look

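Libraries that stood far from the other 3 of their group were looked for in the 10 regulators, Atad2 and the genes named by rule, as 90 groups of 4 values. Chance alone marks about 1 group in 20, and 6 were marked, none of them a regulator. Ephx1 was low in control replicate 2 (14.20, against 14.31 to 14.32) and Mgst1 low in Atad2 replicate 1 (9.52, against 9.69 to 9.71). Amer1 was high in Atad2 replicate 3 (10.68, against 10.49 to 10.50). Ep300 was high in control replicate 3 (14.19, against 14.09 to 14.11) and low in Atad2 replicate 4 (14.40, against 14.46 to 14.48). Syvn1 was low in control replicate 3 (11.75, against 11.86 to 11.88).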

How the results depend on the processing

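Over 65 results and 17 alternatives, 1075 of 1105 recomputed values kept within bounds, 23 moved outside them, 7 calls were lost and 0 of the called results reversed. The bounds were 1.5 times the main value for a count, 1 SD for a regulator's difference and the same side of the threshold for any other gene. Quantile normalization moved most: the turnover list went to 5 higher and 8 lower, NRF1 processing to 3 higher, the proteasome list to 15 higher and 4 lower, heme supply to 0 lower, the large MAF factors to 1 lower and the regulators to 2 lower. Under it Nfe2l2 stood at 0.24, Keap1 at 0.17, Bach1 at 0.29 and Mafg at 0.28, and the uncalled Nfe2l1, Cul3 and Bach2 at -0.14, -0.02 and 0.08. Without the trend, 3 nuclear cofactors and 2 regulators were lower. The cause of these moves was not tested. Leaving out one library at a time gave 1 to 3 lower proteasome genes and 0 to 1 lower heme supply genes. NRF2 targets rose in 31 to 32 cases and fell in 3 to 5 under all alternatives. The number that fell was 3 without the filter and without the trend. It was also 3 without control replicate 1, 2 or 4 or Atad2 replicate 1, 2 or 3. Tkt, the nearest to the threshold of the 4 that fell, was not among the 65 results.

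Same-numbered libraries did not deviate together (correlations of -0.023 to 0.034 over 4 pairs, against -0.042 to 0.036 for other pairs; 2 of 4 control and 1 of 4 Atad2 libraries matched their own number best), so the numbers were not used as pairs. With the replicate block, 4562 genes were higher and 4379 lower, against 4528 and 4352, and NRF1 processing genes higher went from 6 to 5. No single gene named lost its call, and no other count of list genes changed. Depth limits Bach2 (77 reads at the lowest) and the untested Nfe2, Nfe2l3, Nrl and Gpx2, for which a difference was not detectable.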
